A study of Mus musculus with 9 samples.

Results

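The ventricular zone (VZ) of the embryonic mouse hypothalamus was compared with its lateral mantle zone (lMZ) across all genes measurable in these 2 zones. The members were the genes with a deposited value of at least 1 FPKM (fragments scaled to transcript length and library size) in at least 3 of the 6 VZ and lMZ libraries. There were 13424 of them among the 38195 genes of the table. Both groups were E12.5 embryos of the outbred mouse strain CD-1, and the labels name no altered allele and no treatment. The zones were microdissected from coronal vibratome slices, so each library holds the mixed cells of a strip of tissue. Each zone had 3 libraries, numbered 1 to 3 and written here as VZ1 to VZ3 and lMZ1 to lMZ3, and the 3 medial mantle zone libraries of the series were not used in the comparison.

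The ventricular zone lines the third ventricle and holds the dividing progenitors, radial glia, whose cell bodies touch the ventricle and whose nuclei move to its surface for mitosis. Cells that leave the cycle pass through a short commitment phase driven by proneural factors and migrate outwards into the mantle, where they mature as neurons. In the hypothalamus the lateral mantle receives the neurons born early, among them those that make arousal and feeding peptides, while the medial mantle receives later-born neurons. Notch signalling keeps progenitors from differentiating, and the Wnt, Hedgehog, FGF and BMP pathways set their regional identity.

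The VZ libraries varied more among themselves than the lMZ libraries. VZ3 was shallow: it listed 1944 members at 0, against 19 to 98 in the other 5 libraries, and the step size of its low values implied about 257039 fragments, against 4466835 to 8912509 in the other 5. On a transcript of 2 kilobases 1 fragment in VZ3 was worth 1.95 FPKM, so a value of 0 there says little about a gene of low level. VZ2 stood between the zones. Over the genes that differed, its median distance from the lMZ mean was 73.7% of the VZ difference, against 103% for VZ1 and 124% for VZ3. Its correlation with the lMZ libraries across members ran from 0.907 to 0.918, against 0.820 to 0.838 for VZ1 and 0.676 to 0.698 for VZ3, whereas pairs of lMZ libraries reached 0.964 to 0.970 (Pearson's r across genes, which are not replicates). The root mean square of a library's deviations from its zone's mean log2 level was 0.753 in VZ3, 0.529 in VZ2 and 0.400 in VZ1, and 0.257 to 0.282 in the lMZ. Values below are therefore given by library, always in the order of replicates 1, 2 and 3.

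The dissection was checked against marker genes of progenitors and neurons. Summed over 10 progenitor markers (among them Vim, Sox2, Sox9 and Hes5), the level was 1711, 943 and 1983 FPKM in the VZ and 122, 87.2 and 116 FPKM in the lMZ. Each VZ sum exceeded each lMZ sum, and VZ2 had the lowest VZ sum. Vim alone gave 918, 522 and 899 FPKM of the VZ sums. In the fit described below 8 of these 10 markers were higher in the VZ at an adjusted p under 0.05, beside 7.95% of all members. None was lower, and Pax6 hardly differed (log2 difference 0.07). Summed over 10 markers of postmitotic neurons (among them Stmn2, Gap43 and Dcx), it was 673, 1345 and 581 FPKM in the VZ and 2064, 2036 and 1807 FPKM in the lMZ. Neuronal RNA was thus present in every VZ library, most in VZ2. Only 2 of these 10 markers were lower in the VZ at an adjusted p under 0.05, beside 5.18% of all members, and none was higher. For 8 of them each VZ library lay below each lMZ library, as was so for 20.4% of all members. The log2 differences of the 10 neuronal markers ran from -2.74 to 0.10. In bulk tissue such as this, fewer cells of a type and less RNA per cell cannot be told apart.

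Of the 13424 members, 1762 (13.1%) differed between the zones at an adjusted p under 0.05 (limma on log2(FPKM + 1), Benjamini-Hochberg over all members). Of these, 1067 (7.95% of members) were higher and 695 (5.18%) lower in the VZ. Differences are given as the VZ mean minus the lMZ mean on the log2(FPKM + 1) scale with their standard error (n = 3 libraries a zone), which understates the fold of genes of low level. At least 2-fold on this scale were 927 of the higher (6.91% of members) and 589 of the lower genes (4.39%), at least 8-fold 146 and 40, and at least 16-fold 34 and 7. The median difference over all members was 0.05. With trimmed mean scaling of the libraries the median moved by -0.11 and the share of calls that were higher in the VZ was 51.3% in place of 60.6%. With quantile normalization that share was 52.4%.

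The libraries of the zones did not overlap for 3455 members with the VZ above (25.7%) and 2739 with the VZ below (20.4%), among them all 1762 genes called. The number of calls depended on single libraries. Without VZ1 it fell to 167 higher (1.24% of members) and 27 lower (0.201%). Without lMZ1 it was 208 higher (1.55%) and 19 lower (0.142%), without lMZ2 235 (1.75%) and 44 (0.328%), and without lMZ3 294 (2.19%) and 33 (0.246%). It rose to 1575 higher (11.7%) and 1747 lower (13.0%) without VZ2, and to 1645 (12.3%) and 1326 (9.88%) without VZ3. In each of the 6 fits with 1 library left out, 155 genes were called higher (1.15% of members) and 17 lower (0.127%). Genes of this set are pointed out below, and each other call was lost in at least 1 of these fits. Genes named beyond the rule in the processing notes were chosen after their values were seen. Without VZ1, 1569 of the 1762 calls were lost, and without lMZ1, lMZ2 or lMZ3 1535, 1488 and 1437, against 34 without VZ2 and 3 without VZ3. Nothing in the labels tells if replicates were different animals, litters or pools, so p-values measure only the spread between these libraries, which may be technical.

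Some members could be called in 1 direction only. A total of 334 members passed the level filter through the VZ alone (at least 1 FPKM in all VZ and in no lMZ library) and 211 through the lMZ alone, and these gave 233 of the higher and 91 of the lower calls. At the edge of the filter, the 996 members with exactly 3 libraries at 1 FPKM or more had a median level of 1.33 FPKM, and the 744 genes just outside, with exactly 2, had 0.844 FPKM. Among the lists described below, 10 of 32 mitosis genes, 7 of 15 Hedgehog genes, 5 of 23 Wnt genes, 5 of 23 patterning factors, 4 of 20 proneural factors, 4 of 27 replication genes and 4 of 6 choroid markers passed through the VZ alone. VZ3 listed 236 of the 695 lower genes at 0 and none of the higher ones.

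Cenpj, the gene named in the title of the series, encodes a centriole assembly protein needed for spindle formation. Its level was 6.57, 4.67 and 6.83 FPKM in the VZ and 1.41, 1.94 and 1.6 FPKM in the lMZ. Each VZ library lay above each lMZ library. The difference was 1.40 ± 0.28 (adjusted p = 0.0254), higher in the VZ in 3 of 3 libraries. It lost the threshold without VZ1 (adjusted p = 0.103), without lMZ1, lMZ2 or lMZ3 (0.129, 0.0964 and 0.108) and with no filter on low values (0.0686), and it was at 0.0159 and 0.0139 without VZ2 and VZ3. The gene lies at chr14:56526761-56575425, minus strand of the mm10 build.

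The 12 genes with the highest differences included progenitor factors, signalling genes, a metabolic enzyme and mitotic genes. Dbx1, a homeobox factor of neural progenitor domains (chr7:49631499-49636849, minus strand), had 124, 74 and 181 FPKM in the VZ and 0, 0.0694 and 0.109 FPKM in the lMZ. It was near 0 throughout the lMZ, and its difference was 6.82 ± 0.34 (adjusted p = 0.00163). Wnt8b, a secreted Wnt ligand (chr19:44493472-44514273, plus strand), had 62.5, 26.4 and 65.9 FPKM in the VZ and 0, 0 and 0.0653 FPKM in the lMZ, a difference of 5.58 ± 0.39 (adjusted p = 0.00259). Fgfr3, a receptor for fibroblast growth factors (chr5:33721674-33737068, plus strand), had 199.99, 65 and 173 FPKM in the VZ and 2.44, 2.43 and 0.92 FPKM in the lMZ, a difference of 5.55 ± 0.46 (adjusted p = 0.00416). In these 3 genes VZ2 was the lowest VZ library, and still far above the lMZ. Mfng, the Manic fringe enzyme that adds sugars to Notch receptors, had 136, 77.9 and 128 FPKM in the VZ and 2.77, 1.1 and 2.35 FPKM in the lMZ, a difference of 5.23 ± 0.32 (adjusted p = 0.00259). Hes5, a repressor that Notch signalling switches on, had 55.6, 27.6 and 212 FPKM in the VZ and 0.841, 2.77 and 0.19 FPKM in the lMZ, and its VZ libraries spread more than those of Mfng. Phgdh, the first enzyme of serine synthesis from glucose, had 72.6, 42.2 and 98.7 FPKM in the VZ and 0.80, 1.2 and 1.64 FPKM in the lMZ, a difference of 4.96 ± 0.35 (adjusted p = 0.00259). Tead2, a DNA-binding partner of the Yap coactivators, had 148, 81.7 and 389 FPKM in the VZ and 4.36, 2.8 and 7.18 FPKM in the lMZ. Nhlh1, a bHLH factor of newborn neurons, had 45.7, 22.9 and 70.2 FPKM in the VZ and 0.24, 0.232 and 0.913 FPKM in the lMZ: a gene of committed cells was thus also among the highest in the VZ. Col2a1, Ccnb1, Wnt7b and Top2a completed the group with differences of 4.85, 4.72, 4.70 and 4.61. Dbx1, Wnt8b and Nhlh1 had passed the level filter through the VZ alone. Ccnb1, Col2a1, Dbx1, Fgfr3, Mfng, Nhlh1, Phgdh, Tead2, Top2a, Wnt7b and Wnt8b passed in all 6 fits with 1 library left out.

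**Figure D1:**
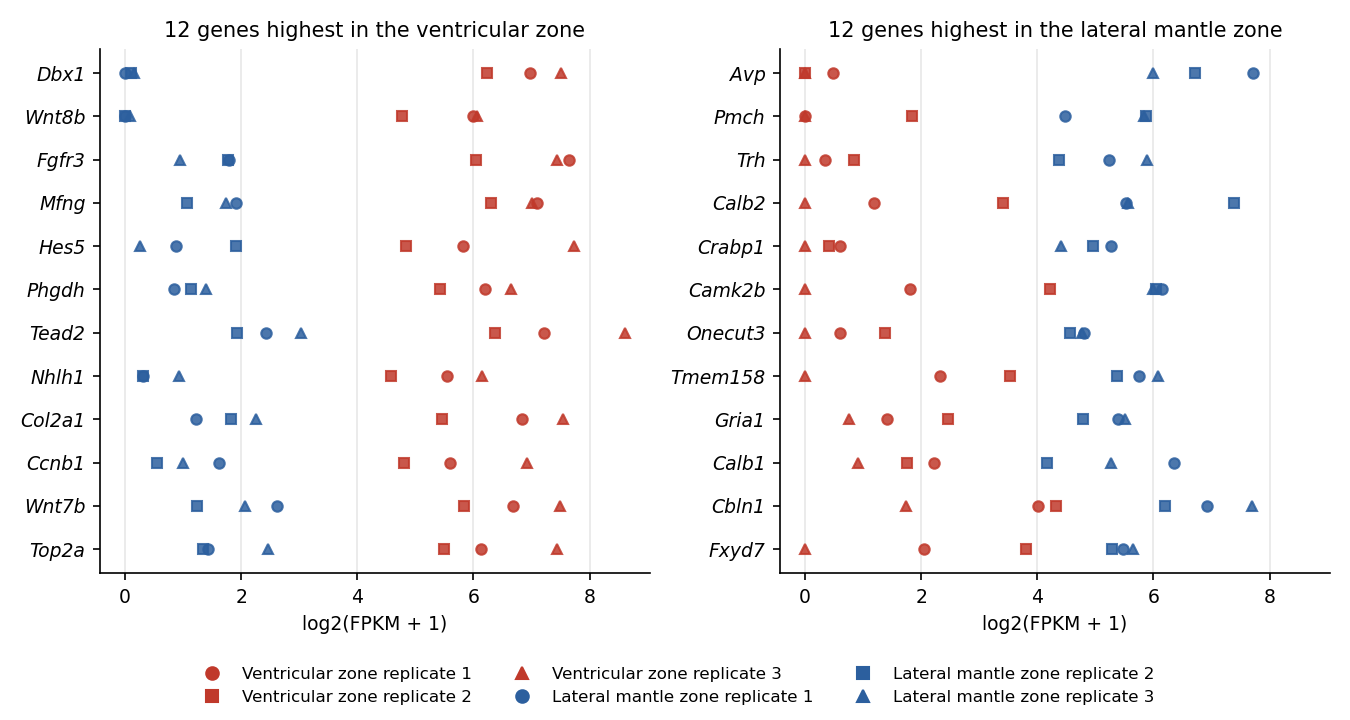
Level of the 24 genes with the largest differences, as log2(FPKM + 1) on the horizontal axis, with 1 point per library (red, VZ; blue, lMZ; symbols, replicates). In every gene the 3 red and 3 blue points are separate, which was a condition for choosing these genes. VZ2 (squares) is the VZ library nearest to the lMZ in all 12 genes of the left panel. VZ3 (triangles) lists 9 of the 12 genes of the right panel at 0.

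The 12 genes with the lowest differences included neuropeptides, calcium-binding proteins and synaptic genes. Avp, which encodes vasopressin (chr2:130580620-130582554, minus strand), had 0.399, 0 and 0 FPKM in the VZ and 210.0, 104 and 63 FPKM in the lMZ, a difference of -6.65 ± 0.44 (adjusted p = 0.00259). Pmch, the precursor of melanin-concentrating hormone, a peptide of lateral hypothalamic neurons (chr10:88091072-88092375, plus strand), had 0, 2.58 and 0 FPKM in the VZ and 21.2, 57.3 and 56.1 FPKM in the lMZ. Its difference was -4.78 ± 0.61 (adjusted p = 0.0074), and the only VZ library above 1 FPKM was VZ2. Trh, the precursor of thyrotropin-releasing hormone, had 0.266, 0.785 and 0 FPKM in the VZ and 36.5, 19.7 and 58.5 FPKM in the lMZ, a difference of -4.77 ± 0.44 (adjusted p = 0.00416). That no VZ library reached an lMZ library was a condition for choosing these genes. Avp and Trh had also passed the level filter through the lMZ alone. Calb2 (calretinin) had 1.28, 9.58 and 0 FPKM in the VZ and 45.3, 167 and 46.5 FPKM in the lMZ, with VZ2 the highest VZ library. Crabp1, which binds retinoic acid in the cytoplasm, had 0.512, 0.338 and 0 FPKM in the VZ and 37.5, 30.3 and 20.4 FPKM in the lMZ, a difference of -4.54 ± 0.33 (adjusted p = 0.00284). Camk2b, a subunit of a calcium-activated kinase of neurons, had 2.49, 17.6 and 0 FPKM in the VZ and 69.6, 65.2 and 62.8 FPKM in the lMZ. The homeobox factor Onecut3 had 0.525, 1.6 and 0 FPKM in the VZ and 26.8, 22.7 and 26.3 FPKM in the lMZ, a difference of -4.05 ± 0.38 (adjusted p = 0.00416). Gria1, a subunit of AMPA-type glutamate receptors, had 1.65, 4.49 and 0.688 FPKM in the VZ and 40.8, 26.6 and 44.8 FPKM in the lMZ, a difference of -3.69 ± 0.45 (adjusted p = 0.00676). Tmem158, Calb1 (calbindin), the synaptic organiser Cbln1 and the sodium pump regulator Fxyd7 had differences of -3.79, -3.63, -3.58 and -3.52. Avp, Crabp1, Gria1, Onecut3, Pmch and Trh passed in all 6 fits with 1 library left out. VZ3 listed 9 of these 12 genes at 0, Gria1, Calb1 and Cbln1 being the exceptions, and low levels were not detectable at its depth.

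Among genes called with at least a 2-fold difference, those of highest level in the VZ were haemoglobin genes (treated with the erythroid markers below), Ckb, Miat, Vim, Cdk4 and Hmgn2. Vim, the intermediate filament of radial glia, had 918, 522 and 899 FPKM in the VZ and 34.2, 27.1 and 51.4 FPKM in the lMZ, the largest difference of these at 4.34 ± 0.30 (adjusted p = 0.00259). Ckb, the brain creatine kinase, had 676, 569 and 1156 FPKM in the VZ and 203, 241 and 207 FPKM in the lMZ. Miat, a nuclear long noncoding RNA, had 1068, 554 and 733 FPKM in the VZ and 193, 297 and 320.2 FPKM in the lMZ, so it was abundant in both zones. The most abundant genes that were lower in the VZ were Nnat, Tmsb10, Stmn1, Tubb2a, Rtn1, Uchl1, Dpysl3 and mt-Rnr1. Nnat, an imprinted gene for a small membrane protein, had 3146, 3934 and 2842 FPKM in the VZ and 7792, 5339.8 and 7768 FPKM in the lMZ. Stmn1, which destabilises microtubules, had 633, 1234 and 772 FPKM in the VZ and 1828, 1884 and 1615 FPKM in the lMZ. These abundant genes were expressed in both zones and differed by 2- to 4-fold, with log2 differences from -1.83 (Rtn1) to -1.07 (Nnat). mt-Rnr1 is a mitochondrial ribosomal RNA and not a messenger RNA.

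Genes of cell division were called higher in the VZ. All 32 of the 32 genes of mitosis and cytokinesis that were listed were measured and called higher, with a median difference of 3.25 beside 0.05 over all members. For 10 of them, which passed the level filter through the VZ alone, a higher VZ level was built into the choice of members. Ube2c, a ubiquitin-conjugating enzyme of the anaphase-promoting complex, had 66.8, 59.6 and 135 FPKM in the VZ and 4.86, 2.1 and 3.96 FPKM in the lMZ, a difference of 4.20 ± 0.38 (adjusted p = 0.00416). Cenpa, the histone variant of centromeres, had 55.5, 34.6 and 88.4 FPKM in the VZ and 2.75, 2.72 and 4.24 FPKM in the lMZ, a difference of 3.75 ± 0.36 (adjusted p = 0.00416). Ccna2, a cyclin of S phase and mitosis, and Kif11, a spindle motor, had 37.4, 27.8 and 71.2 FPKM against 2.67, 2.51 and 3.22 FPKM and 11.8, 9.62 and 19.2 FPKM against 0.682, 0.315 and 0.765 FPKM. VZ3 was the highest library for these genes and VZ2 the lowest of the VZ. Summed over the list, the level was 813, 561 and 1766 FPKM in the VZ and 56.9, 37.3 and 68 FPKM in the lMZ. With 1 library left out the count ran from 17 (without VZ1 or lMZ1) to 32 (without VZ2 or VZ3). In all 6 fits 16 genes of this list passed, among them Ccna2, Cenpa, Kif11 and Ube2c.

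Genes of replication licensing and DNA synthesis followed with 19 of 27 higher, none lower and a median of 1.94. Rrm2, a subunit of ribonucleotide reductase, had 35.5, 24.6 and 49.6 FPKM in the VZ and 3.28, 1.91 and 2.9 FPKM in the lMZ, a difference of 3.31 ± 0.31 (adjusted p = 0.00416). Mcm5 and Mcm2, subunits of the replicative helicase, had 18.4, 18.7 and 33 FPKM against 3.6, 3.2 and 4.12 FPKM and 30.2, 26.9 and 68.2 FPKM against 3.19, 1.46 and 3.93 FPKM. Levels of these 3 genes in the lMZ were low but not 0. The DNA ligase Lig1 did not pass (30.8, 32.8 and 59.3 FPKM against 18.1, 21.6 and 33.1 FPKM, adjusted p = 0.165). Among cyclins, CDKs and their inhibitors 13 of 24 were higher and 1 lower (median 1.26). The members with the smallest p were not only drivers of division. Cdkn1c, an inhibitor that takes cells out of the cycle, had 226, 257 and 298 FPKM in the VZ and 62, 62.8 and 82.5 FPKM in the lMZ, and Btg2, an antiproliferative gene of neurogenic divisions, had 37.7, 24.6 and 59.8 FPKM in the VZ and 2.3, 2.38 and 3.01 FPKM in the lMZ. Ccnd3, a cyclin of G1, and E2f1, a factor for S phase genes, had differences of 1.98 and 3.79. The single lower member was Cdk5r1, the activator of the neuronal kinase Cdk5, with 40.3, 115 and 67.2 FPKM against 195, 167 and 155 FPKM. Of 26 chromatin genes of dividing cells 15 were higher and none lower (median 1.29), led by Hmga2 with 10.3, 8.54 and 11.1 FPKM against 0.312, 0.156 and 0.237 FPKM, Hmgb2 with 81.5, 52.9 and 157 FPKM against 4.92, 3.17 and 5.65 FPKM, the condensin subunit Ncaph and Uhrf1, which guides maintenance methylation of DNA. Counts with 1 library left out ran from 6 (without VZ1, lMZ1, lMZ2 or lMZ3) to 22 (without VZ2) for replication, from 6 (without VZ1, lMZ1, lMZ2 or lMZ3) to 14 (without VZ2) for cyclins, and from 5 (without VZ1, lMZ1 or lMZ3) to 18 (without VZ2 or VZ3) for chromatin. Btg2, Ccnd3, Cdkn1c, E2f1, Hmga2, Hmgb2, Mcm2, Mcm5, Ncaph, Rrm2 and Uhrf1 passed in all 6 of these fits.

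The promoters of the mitotic genes carried 2 short elements that cell cycle promoters are known for, the CCAAT box and the cell cycle homology region (CHR, TTTGAA). RefSeq promoter windows (GRCm38.p6, 250 bases before to 50 after the start) were found for 26 genes of the mitosis list and for 9183 members. Of the 26 windows 21 (80.8%) held CCAAT, 20 (76.9%) held TTTGAA and 18 (69.2%) held both, on either strand. Of all 9183 windows 39.3% held CCAAT, 11% TTTGAA and 4.91% both. Of the 22 windows of the replication list 16 (72.7%) held CCAAT, 4 (18.2%) TTTGAA and 9 (40.9%) an E2F site (TTTCCCGC or TTTGGCGC), against 3.13% of all windows and none of the mitosis windows. The 150 bases before the start are shown for Top2a, Ube2c, Kif11, Cenpa and Ccnb1, in capitals where CCAAT or TTTGAA (or their reverse complements) match, and for Mcm5, in capitals where an E2F site matches. The windows are Top2a, chr11:99024190-99024339, minus strand; Ube2c, chr2:164769779-164769928, plus strand; Kif11, chr19:37376232-37376381, plus strand; Cenpa, chr5:30666736-30666885, plus strand; Ccnb1, chr13:100786487-100786636, minus strand; and Mcm5, chr8:75109359-75109508, plus strand.
Top2a: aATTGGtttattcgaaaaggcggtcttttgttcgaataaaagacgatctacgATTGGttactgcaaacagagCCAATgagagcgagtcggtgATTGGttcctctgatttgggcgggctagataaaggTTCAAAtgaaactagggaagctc
Ube2c: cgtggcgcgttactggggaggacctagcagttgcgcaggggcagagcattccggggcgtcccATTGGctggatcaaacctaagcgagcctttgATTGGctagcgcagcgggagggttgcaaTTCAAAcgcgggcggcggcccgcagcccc
Kif11: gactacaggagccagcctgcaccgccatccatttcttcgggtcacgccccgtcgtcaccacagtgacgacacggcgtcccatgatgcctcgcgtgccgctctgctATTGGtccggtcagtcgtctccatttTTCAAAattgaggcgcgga
Cenpa: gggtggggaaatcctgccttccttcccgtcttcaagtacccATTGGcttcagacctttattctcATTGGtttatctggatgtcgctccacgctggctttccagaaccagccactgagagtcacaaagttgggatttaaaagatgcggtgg
Ccnb1: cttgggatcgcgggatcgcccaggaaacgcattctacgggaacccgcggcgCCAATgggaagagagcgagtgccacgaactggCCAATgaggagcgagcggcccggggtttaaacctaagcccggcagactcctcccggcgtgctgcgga
Mcm5: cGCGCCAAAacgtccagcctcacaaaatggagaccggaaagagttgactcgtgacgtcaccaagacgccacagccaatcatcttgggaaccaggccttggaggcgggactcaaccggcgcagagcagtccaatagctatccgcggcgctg
In the letters shown, Top2a, Ube2c and Kif11 held both elements, the CHR nearer to the start than any CCAAT box, whereas Ccnb1 and Cenpa held CCAAT boxes but no TTTGAA in this stretch. Over all genes called higher in the VZ 18.2% of 795 windows held TTTGAA and 11.4% both elements, and over those called lower 8.21% and 2.59% of 463 windows did. E2F sites were in 5.16% and 0.432% of these windows. Outside the 4 cell cycle lists the 734 windows of higher genes held TTTGAA in 16.2% and both elements in 9.26%. These lists do not hold every gene of cell division, so these windows include further genes of that kind. Among all 27025 RefSeq windows, 1 per gene and not limited to members, 18.2% held TTTGAA. A match is a description of the letters in the window, not of binding.

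Radial glia genes, Sox factors and polarity genes were called in part, and every call was higher in the VZ. Of 24 measured genes of the radial glia cytoplasm and surface 10 were higher and none lower (median 1.19). Fabp7, a fatty acid carrier of radial glia, had 360.3, 161 and 296 FPKM in the VZ and 14.8, 7.35 and 12.6 FPKM in the lMZ, a difference of 4.42 ± 0.36 (adjusted p = 0.00407). Ednrb, an endothelin receptor, and Ptprz1, a receptor phosphatase, had 27.3, 10.2 and 33.8 FPKM against 0.26, 0.0359 and 0.169 FPKM and 59.3, 32.4 and 68.9 FPKM against 7.72, 8.36 and 8.42 FPKM. The zones were separate in all 3, as in all 1762 genes called, and Ednrb had passed the level filter through the VZ alone. Cd24a, a surface protein of young neurons, was high in both zones with 199, 347 and 233 FPKM against 466, 429 and 448 FPKM and did not pass (adjusted p = 0.0506). Of 11 Sox genes 5 were higher: Sox21 (19, 15.9 and 18.3 FPKM against 0.114, 0.273 and 1.07 FPKM), Sox9 (36.2, 17.6 and 71.3 FPKM against 0.904, 0.302 and 0.581 FPKM), Sox2 (128, 72.8 and 211 FPKM against 5.43, 2.8 and 17 FPKM), Sox1 and Sox3. Of these, Sox1, Sox2, Sox3 and Sox9 hold or specify the progenitor state. Sox4 and Sox11, which act in young neurons, did not pass, with differences of 0.32 and 0.48. Among 24 genes of apical polarity and junctions 6 were higher, none lower, and the median was 0.36. The apical determinant Crb2 had 23.6, 13.8 and 27.1 FPKM in the VZ and 0.585, 0.769 and 0.433 FPKM in the lMZ, a difference of 3.77 ± 0.32 (adjusted p = 0.00416). Prom1, a protein of apical protrusions, had 27.5, 16.9 and 30.8 FPKM against 4.19, 3.35 and 3.76 FPKM. Ctnna1, the alpha-catenin of epithelia, and Llgl1, a basolateral polarity protein, had differences of 2.57 and 1.38. Ctnnb1 (beta-catenin) was abundant in both zones (292, 276 and 508 FPKM against 183, 136 and 236 FPKM) and did not pass. Over the 6 fits with 1 library left out the counts ran from 6 (without VZ1) to 15 (without VZ3) for radial glia, from 2 (without VZ1 or lMZ1) to 7 (without VZ2) for Sox genes, and from 4 (without VZ1, lMZ1, lMZ2 or lMZ3) to 10 (without VZ2) for polarity. Crb2, Ctnna1, Ednrb, Fabp7, Llgl1, Prom1, Ptprz1, Sox21 and Sox9 passed in all 6 of these fits.

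Among metabolic genes, 10 of 17 measured serine and one-carbon enzymes were higher in the VZ and none lower, with a median of 1.5. Besides Phgdh, Psat1, the next enzyme of serine synthesis, had 64.2, 51.9 and 60.1 FPKM in the VZ and 19.9, 18.9 and 14.8 FPKM in the lMZ, a difference of 1.67 ± 0.19 (adjusted p = 0.00609). Gldc, which cleaves glycine in mitochondria, had 16.1, 9.85 and 23 FPKM in the VZ and 0.846, 0.483 and 1.11 FPKM in the lMZ, and Shmt1, which converts serine to glycine, had 6.46, 7.48 and 12.4 FPKM in the VZ and 0.774, 0.41 and 0.572 FPKM in the lMZ. Psph, the last step of serine synthesis, was also higher, so all 3 steps from the glycolytic intermediate to serine were. Of 22 glycolytic isoenzymes and glucose transporters 3 were higher: Hk2 (4.86, 3.14 and 7.37 FPKM against 0.631, 0.249 and 0.47 FPKM), Ldha (135, 95.9 and 310.4 FPKM against 44.8, 32.3 and 34.2 FPKM) and the lactate exporter Slc16a3. In all 13.6% of this list was called, beside 13.1% of all members. Gapdh and Pkm, the most abundant of those that did not pass, had differences of 0.57 and 0.54. Of 21 genes of cholesterol synthesis 4 were higher by about 2-fold (Insig1, Idi1, Lss and Dhcr7, from 0.83 to 1.08). Of 18 amino acid and transmitter transporters the glutamine transporter Slc1a5 was higher (5.99, 5.94 and 5.57 FPKM against 1.68, 2.11 and 1.75 FPKM) and the neuronal glutamate transporter Slc1a1 lower (1.45, 2.56 and 0 FPKM against 5.77, 6.73 and 6.32 FPKM). That was 5.56% each way, beside 7.95% higher and 5.18% lower of all members. When single libraries were left out the counts of higher genes ran from 4 (without VZ1 or lMZ1) to 13 (without VZ3) for serine and one-carbon enzymes, from 0 (without VZ1, lMZ1, lMZ2 or lMZ3) to 6 (without VZ2) for glycolysis and from 0 (without VZ1, lMZ1, lMZ2 or lMZ3) to 5 (without VZ3) for cholesterol. Gldc, Phgdh, Psat1 and Shmt1 passed in all 6 of these fits.

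Of 21 measured Notch pathway genes 14 were higher in the VZ and 1 lower, with a median of 2.61. They spanned receptors (Notch1, Notch2 and Notch3), ligands (Dll1 and Dll3), fringes (Lfng and Mfng), the DNA-binding partner Rbpj and targets (Hes1, Hes5, Hey1 and Nrarp). Notch3 had 42.5, 23.1 and 40.5 FPKM in the VZ and 2.08, 2.18 and 2.87 FPKM in the lMZ, a difference of 3.39 ± 0.30 (adjusted p = 0.00416). The ligand Dll1, which is made by cells entering neurogenesis, had 91.8, 46.6 and 141 FPKM in the VZ and 13, 14.3 and 12 FPKM in the lMZ, and Dll3 had 56.9, 28.7 and 83.7 FPKM against 2.68, 1.25 and 6.13 FPKM. Lfng, the Lunatic fringe, had 38.5, 18.7 and 45.8 FPKM in the VZ and 1.04, 0 and 0.496 FPKM in the lMZ, a difference of 4.51 ± 0.43 (adjusted p = 0.00416). Nrarp, a feedback target of the pathway, had 60.9, 35.8 and 96.8 FPKM against 5.22, 2.77 and 4.1 FPKM. Both the ligands and the target genes were thus higher in the same tissue strip. The single lower member was Dner, a neuronal transmembrane protein related to Notch ligands, with 17.1, 48.6 and 10.3 FPKM against 87.6, 96.2 and 91.3 FPKM, and VZ2 was its highest VZ library. Leaving out 1 library at a time, the count of higher genes ran from 5 (without VZ1) to 14 (without VZ2 or VZ3). Lfng, Mfng, Notch2, Notch3 and Nrarp passed in all 6 fits.

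Of 23 measured Wnt genes 12 were higher in the VZ and none lower, with a median of 1.73. Of the 34 listed genes the others did not reach the level filter. The ligands Wnt8b, Wnt7b and Wnt5a were higher, as were the receptors Fzd1, Fzd2, Fzd7, Fzd9 and Fzd10. Fzd2 had 22.6, 17.4 and 34.2 FPKM in the VZ and 0.319, 0.308 and 1.33 FPKM in the lMZ, a difference of 3.96 ± 0.37 (adjusted p = 0.00416), and Fzd9 had 7.75, 5.97 and 6.74 FPKM against 0.39, 0.942 and 0.493 FPKM. Sfrp2, a secreted Wnt antagonist, had 17.4, 11 and 32.3 FPKM against 1.58, 0.946 and 1.26 FPKM. Fzd3, a receptor used in axon guidance, had 25.9, 16.4 and 85.1 FPKM against 12.2, 9.45 and 10.3 FPKM and did not pass (adjusted p = 0.0913). For the Hedgehog pathway 10 of 15 measured genes were higher and none lower (median 2.01), and 7 of the 15, Gli1 and Boc among them, had passed the level filter through the VZ alone. The ligand Shh had 29, 10.8 and 99.3 FPKM in the VZ and 1.91, 1.53 and 1.66 FPKM in the lMZ, and each lMZ library was under 2 FPKM. The signal transducer Smo had 43.9, 27.9 and 66.4 FPKM in the VZ and 5.12, 3.76 and 6.03 FPKM in the lMZ, and the target and effector Gli1 had 6.73, 6.58 and 5.12 FPKM in the VZ and 0.316, 0.0762 and 0 FPKM in the lMZ. Ptch1, receptor and target at once, and the co-receptor Boc had differences of 2.01 and 2.08. Each VZ library lay above each lMZ library for 12 of the 15 genes, beside 25.7% of all members. Gpr161 lay below in the same way, as 20.4% of all members did. With 1 library left out the counts ran from 5 (without VZ1) to 16 (without VZ2) for Wnt genes and from 3 (without lMZ1) to 12 (without VZ2 or VZ3) for Hedgehog genes. Fzd2, Fzd9, Gli1, Ptch1, Sfrp2, Smo, Wnt7b and Wnt8b passed in all 6 of these fits.

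The other pathways were called in part. Of 17 FGF genes 4 were higher (Fgfr3, Fgfr1, Fgf15 and Fgfbp3) with a median of 0.14, and none was lower. Fgf15, a ligand of the diencephalon, had 9.75, 4.45 and 15.3 FPKM in the VZ and 0.252, 0.0814 and 0 FPKM in the lMZ. Of 22 BMP and TGF-beta genes 6 were higher and none lower (median 0.48). Id3, a BMP target that blocks bHLH factors, had 45.8, 17.9 and 67.8 FPKM in the VZ and 2.49, 0.602 and 1.9 FPKM in the lMZ, and Fst (follistatin, an activin antagonist) had 9.08, 7.06 and 11.6 FPKM against 1.02, 0.431 and 2.03 FPKM. Of 16 Hippo pathway genes 8 were higher and none lower (median 1.41). The coactivator Yap1 had 21.5, 18.4 and 29 FPKM in the VZ and 0.664, 0.103 and 1.66 FPKM in the lMZ, a difference of 3.80 ± 0.38 (adjusted p = 0.00497), and Ajuba, which restrains the upstream kinases, had 14.9, 10.5 and 7.52 FPKM against 0.476, 0.44 and 0.502 FPKM. Of 13 IGF genes 6 were higher (median 0.90): the binding proteins Igfbp2 (86.2, 73 and 91.3 FPKM against 25.1, 28.8 and 32.3 FPKM) and Igfbpl1, the RNA-binding proteins Igf2bp1, Igf2bp2 and Igf2bp3, and Irs2. Over the 6 fits with 1 library left out the counts ran from 1 (without VZ1) to 6 (without VZ3) for FGF, from 0 (without VZ1) to 9 (without VZ2 or VZ3) for BMP, from 3 (without lMZ1, lMZ2 or lMZ3) to 10 (without VZ3) for Hippo and from 1 (without VZ1, lMZ1 or lMZ2) to 8 (without VZ2) for IGF genes. Ajuba, Fgfr3, Igfbp2 and Yap1 passed in all 6 of these fits.

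**Figure D2:**
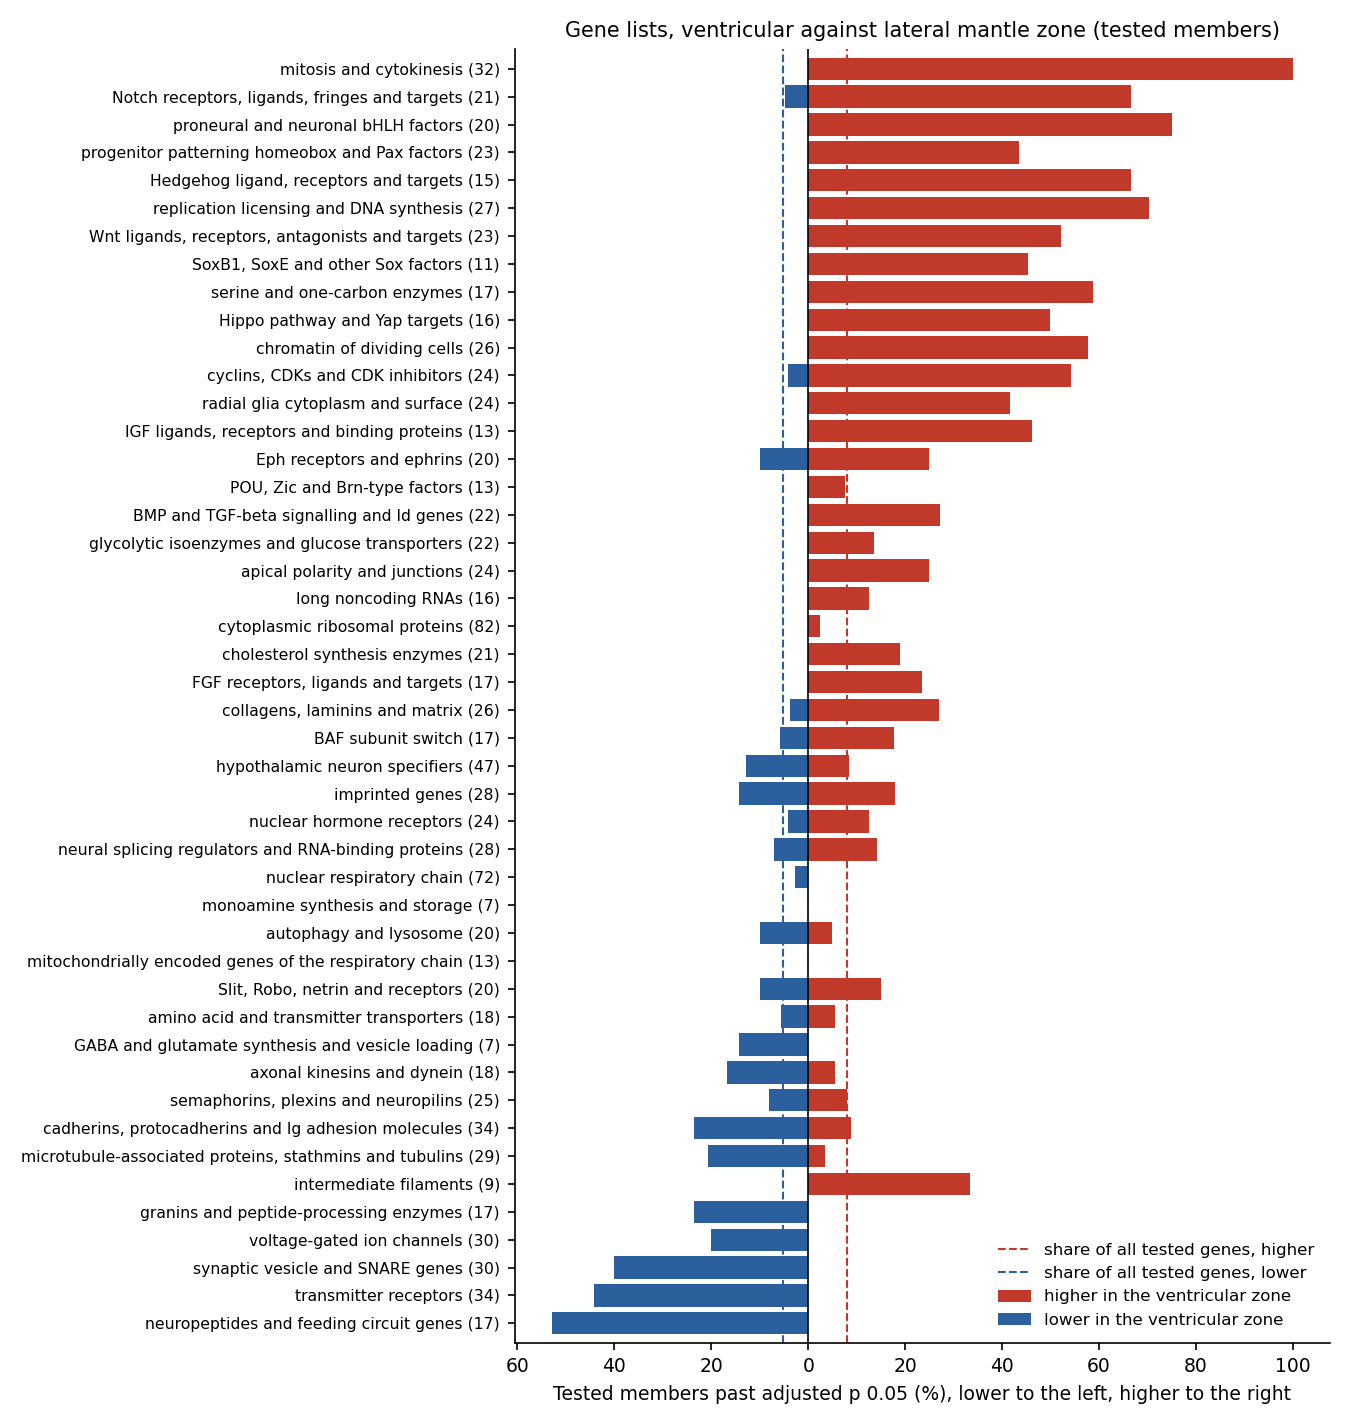
Share of the measured members of each gene list (number in brackets) that passed adjusted p 0.05, higher in the VZ to the right (red) and lower to the left (blue), sorted by the list's median difference. Dashed lines mark the share over all 13424 members, 7.95% higher and 5.18% lower; mitosis is at 100% on the right, and neuropeptides, transmitter receptors and synaptic vesicle genes reach farthest to the left.

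Transcription factors of neuronal commitment were higher in the VZ. Of 20 measured proneural and neuronal bHLH factors and their partners 15 were higher and none lower, with a median of 2.39. Olig2, a bHLH factor of ventral progenitors, had 36.2, 48.1 and 44.2 FPKM in the VZ and 1.82, 0.47 and 1.02 FPKM in the lMZ, a difference of 4.42 ± 0.30 (adjusted p = 0.00259). The proneural factors Neurog1 and Neurog2, which start neurogenesis, had 5.2, 7.32 and 7.21 FPKM against 0.0926, 0.179 and 0 FPKM and 76, 52.3 and 143 FPKM against 6.84, 2.92 and 12 FPKM. Gadd45g, a stress-type gene that marks cells leaving the cycle, had 85.7, 58.6 and 174 FPKM in the VZ and 4.59, 5.63 and 7.06 FPKM in the lMZ. Neurod1, Neurod2 and Neurod6, factors of differentiating neurons in many brain regions, were higher in the VZ as well, at 13.9, 10.2 and 12.6 FPKM against 1.72, 0.937 and 4.09 FPKM, 10.3, 4.97 and 8.43 FPKM against 0.278, 0 and 0.564 FPKM and 7.81, 7.83 and 7.22 FPKM against 0.695, 0.739 and 0.423 FPKM. Summed over the list the level was 797, 620.1 and 1115 FPKM in the VZ and 184, 144 and 222 FPKM in the lMZ. The repressor Scrt2, made in newborn neurons, differed by 0.52 and did not pass. When single libraries were left out the count ran from 7 (without VZ1) to 16 (without VZ3). Gadd45g, Neurod2, Neurod6, Neurog1 and Olig2 passed in all 6 fits.

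Of the 36 progenitor patterning factors listed, 23 were measured, 10 were higher and none lower (median 2.07). Otx2 had 32.3, 12.502 and 43.3 FPKM in the VZ and 0, 0.465 and 0 FPKM in the lMZ, a difference of 4.58 ± 0.47 (adjusted p = 0.00515), and Otx1 had 19.6, 14.2 and 11.4 FPKM against 1.49, 2.03 and 2.73 FPKM. Rax, a factor that hypothalamic and retinal progenitors need, had 7.21, 5.36 and 14.3 FPKM in the VZ and 0, 0 and 0 FPKM in the lMZ. It was listed at 0 in all lMZ libraries, so no fold is given. Nkx2-1, which specifies the ventral hypothalamus, was present in both zones (132, 191 and 41.5 FPKM against 11.7, 35.9 and 30.3 FPKM) and did not pass (adjusted p = 0.064). Nr2e1, a nuclear receptor of neural progenitors known as Tlx, had 15.7, 13.2 and 52.4 FPKM in the VZ and 0.0885, 0 and 0.336 FPKM in the lMZ. Among 24 nuclear receptors it was called higher with Nr2f1 and Nr4a2, and Thra, a thyroid hormone receptor, was lower (124, 202 and 107 FPKM against 349, 296 and 349 FPKM). Of the nuclear receptors 16.7% were called, beside 13.1% of all members. Pou3f4 was the single factor called among 13 POU and Zic genes, 7.7% of them. Leaving out 1 library at a time, the patterning count ran from 4 (without VZ1) to 14 (without VZ3). Nr2e1, Otx1, Otx2 and Rax passed in all 6 fits.

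Factors that specify hypothalamic neuron types were called in both directions, 8.51% higher and 12.8% lower beside 7.95% and 5.18% of all members. Of 47 measured, 4 were higher, 6 lower, and the median was 0.02. Lower in the VZ were Onecut1, Onecut2, Onecut3, Arnt2, Lmo3 and Meis2. Onecut2 had 1.67, 2.69 and 1.75 FPKM in the VZ and 10.3, 7.8 and 10.1 FPKM in the lMZ, and Arnt2, a partner of Sim1 in neuroendocrine neurons, had 56.6, 74.6 and 51.7 FPKM in the VZ and 135, 111 and 101 FPKM in the lMZ. Higher were Barhl2, Lmo1, Sim2 and St18, of which Lmo1 had 29.6, 32.2 and 47.7 FPKM in the VZ and 2.45, 4.0 and 7.24 FPKM in the lMZ and St18 had 76.5, 31.5 and 119.8 FPKM in the VZ and 3.26, 5.29 and 4.75 FPKM in the lMZ. Otp, needed for neuroendocrine neurons, had 69.6, 99.9 and 42.4 FPKM against 393, 116 and 467 FPKM and did not pass (adjusted p = 0.0515). With 1 library left out the lower count ran from 1 (without VZ1, lMZ1 or lMZ3) to 10 (without VZ2) and the higher count from 2 (without VZ1, lMZ1 or lMZ3) to 6 (without VZ2 or VZ3). Lmo1, Onecut3 and St18 passed in all 6 fits.

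The lMZ libraries also differed among themselves in regional factors. Among 89 transcription factors of the patterning, specifier, POU and Zic, and Sox lists, 12 had an lMZ maximum of at least 20 FPKM and at least a 6-fold ratio between the highest and lowest lMZ library (a selection made after the values were seen). In lMZ2 5 of them were highest: Barhl1, Barhl2, Lmx1a, Lmx1b and Foxa1. Barhl1, a homeobox factor of the mammillary and subthalamic region, had 101, 98.6 and 199 FPKM in the VZ and 22.2, 139.6 and 4.91 FPKM in the lMZ. In lMZ3 5 were highest: Zic1, Zic2, Zic4, Vax1 and Fezf1. Zic1 had 16.7, 10.1 and 32 FPKM in the VZ and 15.1, 9.27 and 133 FPKM in the lMZ. The remaining 2, Tbr1 and Pax6, were highest in lMZ1. Pax6 had 15.2, 24.1 and 30.6 FPKM in the VZ and 46.1, 34.6 and 5.61 FPKM in the lMZ. Factors known from the posterior hypothalamus were thus high in lMZ2 and factors known from the preoptic and telencephalic border in lMZ3. The medial mantle libraries, of which replicate 3 listed 932 members at 0, followed the same replicate numbers for these 10 factors. Each of the 5 factors highest in lMZ2 was highest in medial replicate 2, and each of the 5 highest in lMZ3 was highest in medial replicate 3. Of the 2 highest in lMZ1, Pax6 was highest in medial replicate 1 but Tbr1 in medial replicate 3. In the medial libraries Barhl1 had 18.6, 61.4 and 0 FPKM and Zic1 had 28.2, 23.7 and 76.4 FPKM. What same-numbered libraries shared is not stated in the labels.

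**Figure D3:**
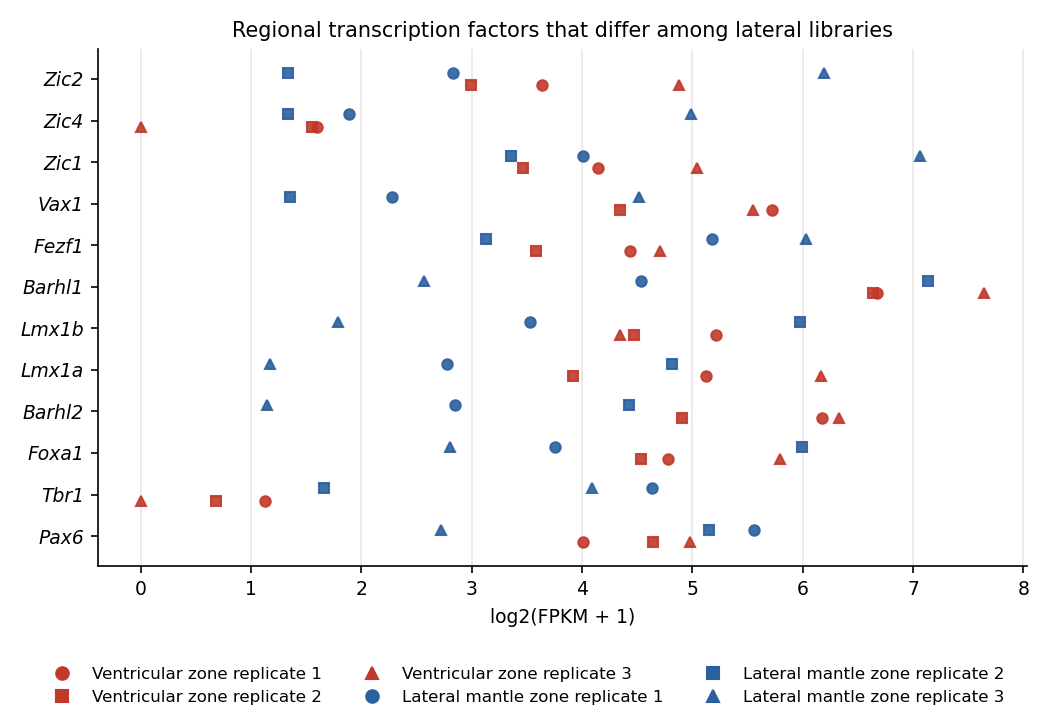
Level of 12 regional transcription factors that differ strongly among the lMZ libraries, as log2(FPKM + 1), with 1 point per library (red, VZ; blue, lMZ; symbols, replicates). The blue square (lMZ2) is highest of the lMZ for Barhl1, Barhl2, Lmx1a, Lmx1b and Foxa1, and the blue triangle (lMZ3) for the Zic genes, Vax1 and Fezf1.

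Subunits and regulators that switch between progenitors and neurons were called in both directions, 23.5% of the BAF and 21.4% of the splicing list beside 13.1% of all members. Of 17 genes of the BAF chromatin remodelling complex 3 were higher and 1 lower. Actl6a and Ss18, the subunits of the progenitor complex, had 46.2, 37.6 and 61.5 FPKM in the VZ and 17.3, 17.4 and 19.6 FPKM in the lMZ and 23.6, 19.9 and 27 FPKM against 10.2, 8.77 and 9.95 FPKM. Arid1a, a core subunit, was also higher, by 0.59, and the ATPase Smarca2 was lower, with 22.5, 39.9 and 30.4 FPKM against 93.6, 65.7 and 68.8 FPKM. Their neuronal counterparts Actl6b and Ss18l1 had 36.8, 110.5 and 21.2 FPKM against 121, 154 and 154 FPKM and 15, 28.2 and 8.58 FPKM against 41.5, 38.3 and 36.3 FPKM and did not pass. Of 28 splicing regulators and RNA-binding proteins 4 were higher and 2 lower. Ptbp1, which represses neuronal exons, had 109, 77.7 and 151 FPKM in the VZ and 18.8, 26.4 and 26.7 FPKM in the lMZ, a difference of 2.15 ± 0.27 (adjusted p = 0.00718). Msi1, a translational regulator of neural stem cells, had 346, 220.3 and 309 FPKM in the VZ and 85.1, 87.3 and 91.5 FPKM in the lMZ. Qk and the neuronal splicing activator Srrm4 were higher as well, by 2.40 and 1.14. Rbfox1 and Rbfox2, which bind neuronal introns, were lower, with 2.09, 7.83 and 0 FPKM against 27, 32.5 and 26 FPKM and 52.4, 77.7 and 48.4 FPKM against 102, 112 and 92 FPKM. Without 1 library the higher counts ran from 0 (without VZ1, lMZ1, lMZ2 or lMZ3) to 4 (without VZ2) for BAF genes and from 2 (without VZ1, lMZ1 or lMZ2) to 4 (without VZ2 or VZ3) for splicing regulators. Msi1 and Ptbp1 passed in all 6 of these fits.

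The genes of synaptic vesicles that passed were all lower in the VZ, and the larger number did not pass. Of 30 measured synaptic vesicle and SNARE genes 12 were lower and none higher, with a median of -1.51. Rab3b, a small GTPase of secretory vesicles, had 5.31, 9.03 and 4.05 FPKM in the VZ and 30.7, 21.3 and 30.5 FPKM in the lMZ. Syt4 and Syt5, synaptotagmins, had 11, 18.4 and 7.67 FPKM against 39.4, 50.8 and 41.9 FPKM and 17.4, 36.7 and 13.6 FPKM against 86.5, 87.5 and 72.2 FPKM. Snap25, a SNARE of the plasma membrane, had 19.2, 32 and 18.7 FPKM in the VZ and 95.4, 55.1 and 65.4 FPKM in the lMZ, so this RNA was present in every VZ library. VZ2 was the highest VZ library in each. The list summed to 485, 809.8 and 380.2 FPKM in the VZ and 1343, 1336 and 1222 FPKM in the lMZ. Stx1a had 17.5, 30.3 and 3.68 FPKM against 49.3, 68.1 and 46.8 FPKM and did not pass (adjusted p = 0.0781), the VZ2 value lying nearest to the lMZ. Without VZ2 the lower count was 22 and without VZ3 18; over the 6 fits it ran from 0 (without VZ1, lMZ1 or lMZ3) to 22 (without VZ2), and no gene of this list passed in all 6.

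Of 34 measured transmitter receptors 15 were lower, none higher, and the median was -1.57. Grm5, a metabotropic glutamate receptor, had 0.0908, 0.824 and 0 FPKM in the VZ and 6.97, 16.9 and 6.84 FPKM in the lMZ, a difference of -3.05 ± 0.44 (adjusted p = 0.00977). Gabbr2, a subunit of the GABA-B receptor, had 0.521, 2.59 and 0 FPKM in the VZ and 10.7, 10.1 and 8.63 FPKM in the lMZ. Grin2b, the NMDA receptor subunit of immature neurons, had 0.022, 0.915 and 0 FPKM in the VZ and 5.88, 5.2 and 2.1 FPKM in the lMZ. Its partner Grin1 was lower too, as were the GABA-A subunits Gabra2, Gabra3 and Gabra5. Of 30 voltage-gated channels 6 were lower and none higher (median -1.16). Kcnd2, a potassium channel of dendrites, had 1.16, 1.75 and 0.718 FPKM in the VZ and 9.11, 8.87 and 9.62 FPKM in the lMZ, and Scn2a1, the sodium channel of young axons, had 1.47, 4.0 and 1.4 FPKM in the VZ and 10.9, 8.87 and 11.4 FPKM in the lMZ. Cacna1e and Cacna2d3, a calcium channel and an auxiliary subunit, had differences of -2.34 and -2.65. Of 7 genes of GABA and glutamate synthesis and vesicle loading, 1 was lower: Gad1, which makes GABA (20.4, 18.2 and 12.4 FPKM against 33.9, 39.4 and 36.4 FPKM). That was 14.3% called, beside 13.1% of all members. None of 7 measured monoamine genes was called by limma, with 3 at an unadjusted p under 0.05. Over the 6 fits with 1 library left out the lower counts ran from 1 (without VZ1) to 26 (without VZ2) for receptors and from 0 (without lMZ1) to 18 (without VZ2) for channels. Gria1 was the only receptor that passed in all 6 fits, and no channel did.

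Of 30 neuropeptide and feeding circuit genes listed, 17 were measured, 9 were lower in the VZ and none was higher, with a median of -1.94. Besides Avp, Pmch and Trh these were Gal, Ghrh, Nts, Nucb2, Pdyn and Penk. Gal (galanin) had 1.2, 1.18 and 0 FPKM in the VZ and 17.6, 9.88 and 12.1 FPKM in the lMZ, a difference of -3.04 ± 0.41 (adjusted p = 0.00838). Ghrh, the growth hormone-releasing hormone, had 1.41, 0.625 and 0 FPKM in the VZ and 13.6, 5.62 and 7.66 FPKM in the lMZ. Penk and Pdyn, opioid precursors, had 0.282, 1.3 and 0 FPKM against 3.4, 2.23 and 4.6 FPKM and 0, 1.6 and 0 FPKM against 27.9, 8.48 and 10.9 FPKM. In each VZ library these 4 genes were at 1.60 FPKM or less. Sst (somatostatin) had 3.41, 51.1 and 0 FPKM in the VZ and 132, 114 and 77 FPKM in the lMZ; its difference of -4.12 did not pass (adjusted p = 0.0679), with VZ2 well above the other VZ libraries. The list summed to 31.8, 92.2 and 24.1 FPKM in the VZ and 505, 375 and 343 FPKM in the lMZ. Of 17 granins and processing enzymes 4 were lower: Scg2 (2.65, 7.3 and 4.64 FPKM against 26, 23.7 and 23.1 FPKM), Scg5, Cadps and Pcsk1n. When single libraries were left out the lower counts ran from 3 (without lMZ1) to 11 (without VZ2) for peptides and from 0 (without lMZ1, lMZ2 or lMZ3) to 9 (without VZ2) for granins. Avp, Pmch and Trh passed in all 6 fits.

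**Figure D4:**
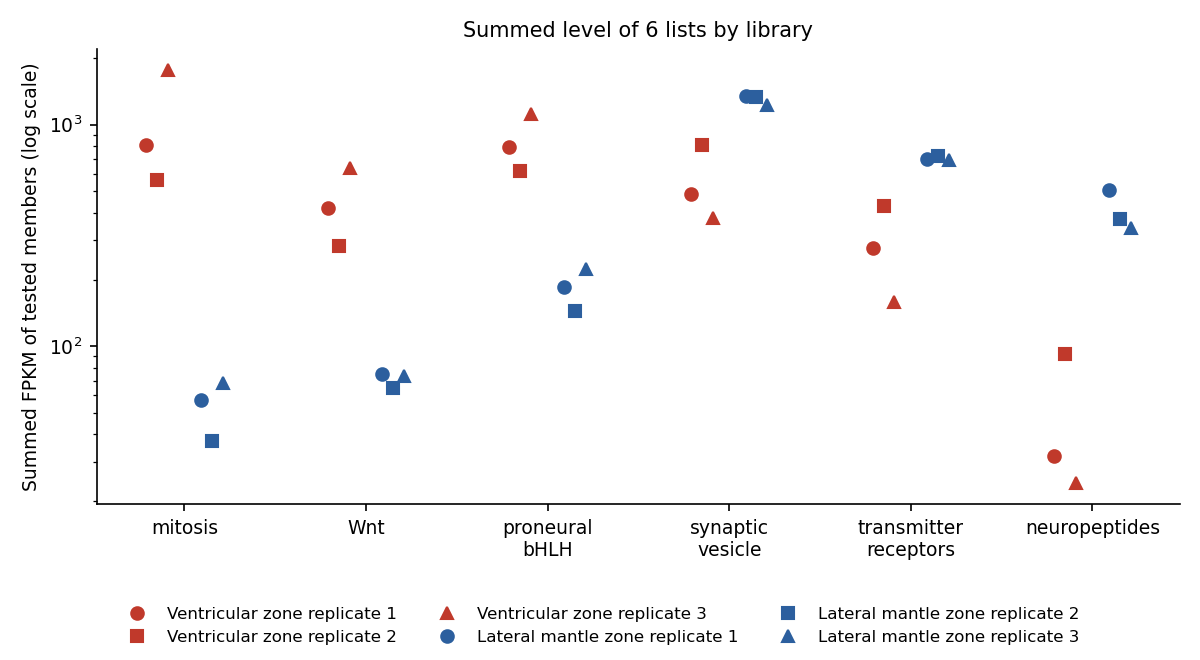
Summed FPKM of the measured members of 6 lists in each library, on a log axis (red, VZ; blue, lMZ; symbols, replicates). For mitosis, Wnt and proneural lists the VZ lies above the lMZ, and for synaptic vesicle, receptor and neuropeptide lists below; VZ2 (red square) is the VZ library nearest to the lMZ in all 6.

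Cytoskeletal genes of neurons were abundant in both zones. Of 29 microtubule-associated proteins, stathmins and tubulins 6 were lower and 1 higher, with a median of -0.88. Dcx (doublecortin), which marks migrating neurons, had 63, 109 and 77.5 FPKM in the VZ and 169, 163 and 142 FPKM in the lMZ, a difference of -0.95 ± 0.22 (adjusted p = 0.0356). Tubb2a and Dpysl3 had 484, 965 and 421 FPKM against 1507, 1534 and 1315 FPKM and 239, 469 and 183 FPKM against 739, 694 and 670.0 FPKM. VZ2 was the highest VZ library for all 3. The member that was higher was Map1a, with 20.3, 16.7 and 35.2 FPKM against 10.5, 8.98 and 10.3 FPKM. Tuba1a, the main tubulin of young neurons, had 2162, 3870.3 and 2357 FPKM against 4491, 5618 and 4655 FPKM and did not pass (adjusted p = 0.0786). Without VZ2 the lower count of this list was 21 and without VZ3 11. Of 18 axonal motors 3 were lower (Kif1a, Kif5c and Dynll2, from -1.72 to -1.31) and Kif21a was higher. Of 9 intermediate filament genes Vim, Nes and the lamin Lmnb1 were higher. Nes (nestin) had 128, 90.0 and 191 FPKM in the VZ and 16, 10.9 and 26.2 FPKM in the lMZ. The neuronal filaments Ina and Nefm were lower in value, with 77.4, 272 and 18.7 FPKM against 406, 395 and 432 FPKM and 18.8, 39.6 and 12.4 FPKM against 98.3, 41.9 and 56.3 FPKM, and did not pass (adjusted p = 0.0851 and 0.0681). Leaving out 1 library at a time, the lower counts ran from 0 (without VZ1, lMZ1, lMZ2 or lMZ3) to 21 (without VZ2) for microtubule genes and from 0 (without VZ1, lMZ1, lMZ2 or lMZ3) to 9 (without VZ2) for motors. Nes and Vim passed in all 6 fits.

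Guidance and adhesion genes were called in both directions. Among 20 genes of the Slit, Robo and netrin families 3 were higher and 2 lower. Ntn1, the attractant netrin, had 92.4, 50.8 and 94.5 FPKM in the VZ and 3.98, 5.26 and 6.31 FPKM in the lMZ, a difference of 3.66 ± 0.29 (adjusted p = 0.00407). Robo3, a receptor that commissural axons use before crossing, had 49.9, 81.3 and 26.1 FPKM in the VZ and 1.14, 1.57 and 0.905 FPKM in the lMZ, a difference of 4.47 ± 0.41 (adjusted p = 0.00416). Slit2 was higher by 1.5, whereas Dscam and Robo2 were lower (1.14, 6.29 and 0 FPKM against 15.7, 16.3 and 15.6 FPKM and 6.74, 18.7 and 5.78 FPKM against 37.6, 95.7 and 25 FPKM). Of 20 Eph receptors and ephrins 5 were higher (Efnb1, Efnb2, Epha3, Ephb3 and Ephb4) and 2 lower (Efnb3 and Epha5). Ephb3 had 13.6, 11.3 and 19.6 FPKM in the VZ and 4.0, 3.85 and 3.87 FPKM in the lMZ and Epha5 had 5.35, 9.75 and 3.9 FPKM in the VZ and 29.8, 26.6 and 28.9 FPKM in the lMZ. Of 25 semaphorins, plexins and neuropilins Sema5b and Plxnb1 were higher and Sema6b and Plxnc1 lower, 8.0% each way beside 7.95% and 5.18% of all members. Of 34 adhesion molecules 3 were higher and 8 lower. The lower ones were Cdh4, Chl1, Cntn1, Cntnap2, Nrcam, Pcdh1, Pcdh7 and Tenm1, of which Cntnap2 had 10.7, 21.2 and 19.7 FPKM in the VZ and 55.6, 41.7 and 59.8 FPKM in the lMZ. Cntn2 (TAG-1), of early axons, was higher, with 48.8, 34.3 and 27.5 FPKM in the VZ and 16.8, 11.1 and 13.8 FPKM in the lMZ. Of 26 matrix genes 7 were higher, among them Col2a1 (113, 42.8 and 186 FPKM against 1.32, 2.53 and 3.77 FPKM), Lamb2 (18.7, 11.8 and 21 FPKM against 0.708, 0.488 and 0.882 FPKM), Col11a1 and Fn1, and Dab1, the adaptor of reelin signalling, was lower. With 1 library left out the counts ran from 0 (without VZ1, lMZ1, lMZ2 or lMZ3) to 15 (without VZ2) for lower adhesion genes and from 2 (without VZ1 or lMZ1) to 9 (without VZ3) for higher matrix genes. For Eph receptors and ephrins the higher count ran from 0 (without VZ1, lMZ1 or lMZ2) to 6 (without VZ3) and the lower count from 0 (without VZ1, lMZ1, lMZ2 or lMZ3) to 5 (without VZ2). The higher count of the Slit, Robo and netrin list ran from 2 (without VZ1, lMZ1, lMZ2 or lMZ3) to 6 (without VZ3) and its lower count from 0 (without VZ1, lMZ1, lMZ2 or lMZ3) to 4 (without VZ2), and semaphorin genes ran from 0 (without VZ1, lMZ2 or lMZ3) to 2 (without VZ2 or VZ3) for higher and from 0 (without VZ1, lMZ1 or lMZ3) to 6 (without VZ2) for lower calls. Col2a1, Lamb2, Ntn1 and Robo3 passed in all 6 of these fits.

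Of 28 imprinted genes 5 were higher and 4 lower (median -0.13). Mest had 371, 311 and 396 FPKM in the VZ and 85.7, 41 and 65.1 FPKM in the lMZ, a difference of 2.53 ± 0.27 (adjusted p = 0.00536), and Plagl1, a zinc finger factor, had 102, 70.0 and 57.8 FPKM in the VZ and 16.3, 14.2 and 22.1 FPKM in the lMZ. Grb10, H19 and Cdkn1c were the others higher, and Nnat, Snrpn, Inpp5f and Nap1l5 were lower. Of 16 long noncoding RNAs Miat and Sox2ot were higher. Sox2 lies within Sox2ot, so their fragments cannot be told apart with certainty. Among 82 ribosomal protein genes, a list made by symbol, 2 were higher (Rpl26 and Rps27l) and the median was 0.30. None of the 13 mitochondrially encoded respiratory chain genes passed by limma (2 at an unadjusted p under 0.05), at a median of -0.36. Of 72 nuclear ones 2 were lower (Cox7a2 and Ndufa1), at a median of -0.21. The ribosomal list thus had 2.4% called and the nuclear respiratory chain list 2.8%, both under the 13.1% of all members. Cdkn1c, Mest and Plagl1 passed in all 6 fits with 1 library left out.

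Markers of other cells were measured for the tissue that a strip could hold besides progenitors and neurons. Erythroid markers moved with the comparison: 5 of 7 measured (of 12 listed) were higher in the VZ, and the list summed to 2033, 2007 and 2217 FPKM in the VZ and 623, 322 and 547 FPKM in the lMZ. Hbb-y, an embryonic beta-type globin, had 1063, 1052 and 1079 FPKM in the VZ and 269, 66.3 and 145 FPKM in the lMZ, and Hba-x, an embryonic alpha-type globin, had 167, 177 and 183 FPKM in the VZ and 45.7, 9.04 and 23.6 FPKM in the lMZ. Hba-a1 and Hba-a2 are near-identical copies whose fragments the counting could split, with 667, 631 and 744 FPKM against 217, 147 and 242 FPKM and 419, 399 and 615 FPKM against 151, 94.2 and 147 FPKM. Klf1, Epor and Hemgn did not reach the level filter. The count of higher erythroid markers ran from 1 (without VZ1 or lMZ3) to 6 (without VZ3). Hba-a1 was the 1 marker of the list that passed in all 6 fits. Hba-a2, which is not on the list, passed in all 6 as well. The part of blood cells in the result was not tested. No endothelial marker was called (0 of 13 by limma, also 0 at an unadjusted p under 0.05), with sums of 48.7, 94.5 and 14.6 FPKM in the VZ and 72.2, 25.3 and 74.9 FPKM in the lMZ. Of 7 measured pericyte markers Notch3 alone was higher, with the list at 56.4, 45.3 and 48.4 FPKM in the VZ and 19.3, 8.45 and 19.8 FPKM in the lMZ, while Pdgfrb did not pass (7.28, 5.19 and 6.15 FPKM against 3.13, 0.737 and 2.6 FPKM), and their part in the Notch3 result was not tested. Of 9 measured microglia markers C1qa alone was lower, with sums of 27.7, 28.4 and 14.1 FPKM in the VZ and 58.9, 45 and 53.9 FPKM in the lMZ. The pericyte list had 14.3% called and the microglia list 11.1%, beside 13.1% of all members.

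Markers of neighbouring tissue gave a mixed picture. Of 6 measured choroid plexus and cilia markers Otx2, Foxj1 and Folr1 were higher, with the list summing to 84.7, 34.8 and 155 FPKM in the VZ and 7.09, 29.6 and 2.87 FPKM in the lMZ; the defining choroid genes Ttr and Kcnj13 did not reach the level filter. Of 6 measured markers of meninges Foxd1, which hypothalamic progenitors also express, was higher (20.8, 9.12 and 28.1 FPKM against 1.93, 1.11 and 0.732 FPKM), with sums of 52.3, 45.7 and 38.1 FPKM in the VZ and 14.1, 7.66 and 18.1 FPKM in the lMZ, and Foxc1, Dcn and Lum did not reach the filter. Of 8 telencephalon markers Neurod6 alone was higher (sums 41.9, 58.7 and 56.2 FPKM in the VZ and 52.7, 37.5 and 70.5 FPKM in the lMZ), and of 6 thalamic and prethalamic markers Barhl2 and Foxd1 were (sums 134, 67.1 and 186 FPKM in the VZ and 45.8, 31.2 and 36.9 FPKM in the lMZ). Of 9 eye markers Rax alone reached the filter. Of 13 immediate early and heat shock genes, which respond quickly to the handling of tissue, Egr1 was lower in the VZ (8.77, 5.15 and 0 FPKM against 27.3, 54.2 and 29.4 FPKM), with sums of 331, 284 and 214 FPKM in the VZ and 322, 521 and 362 FPKM in the lMZ. The part of these cells and of handling in the results was not tested.

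The length of genes went with the direction of the calls. Protein-coding members were split into 5 equal groups by the span of the gene in GENCODE M21. In the group with the longest genes, with a median span of 141 kb, 9.30% of genes were lower and 7.04% higher, while in the other 4 groups 3.64% to 5.78% were lower and 8.21% to 9.64% higher. Of the 766 genes that span at least 200 kb 14.0% were lower and 5.35% higher, with a median difference of -0.49 (-0.64 without VZ2 and -0.41 without VZ3). Among genes with a mean of at least 10 FPKM the group of longest genes again had 9.35% lower and 6.85% higher. Genes named above that span at least 200 kb include Cntnap2 (chr6:45059357-47304213, plus strand), Rbfox1 (chr16:5885355-7411526, plus strand) and Dscam (chr16:96590840-97170752, minus strand). These are shares over genes, and genes are not independent replicates.

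**Figure D5:**
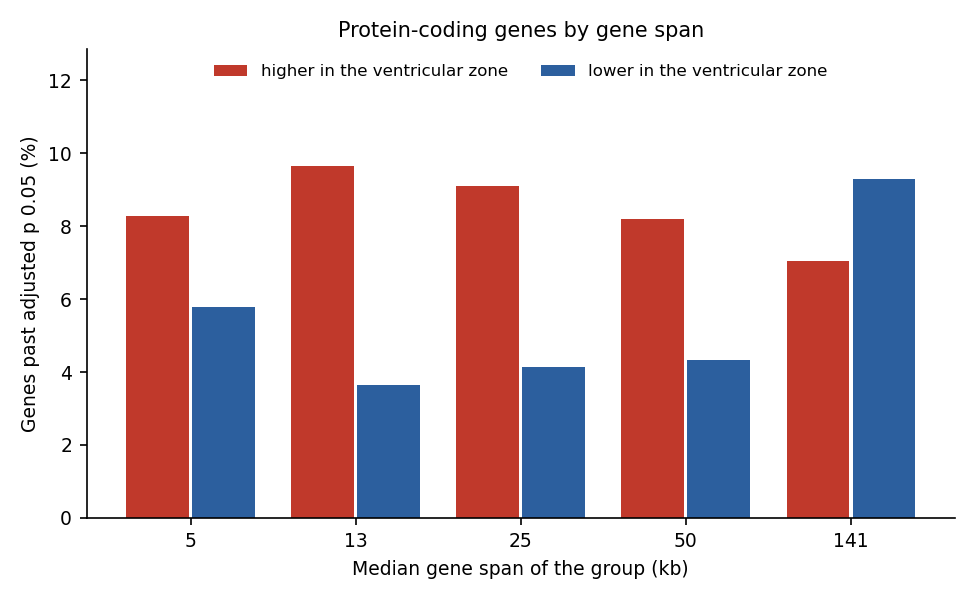
Share of protein-coding members that passed adjusted p 0.05, in 5 groups of equal size by gene span (horizontal axis, median span of the group in kb), with red bars for genes higher and blue bars for genes lower in the VZ. The blue bar exceeds the red bar only in the group of longest genes (9.30% against 7.04%).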

How the data were processed

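RNA of the VZ and lMZ of E12.5 CD-1 embryos was read as 100 bp pairs. The authors deposited FPKM values, 1 table of 38370 rows, and Bowtie2 2.1.0 and mm10 are named per the submitters' processing notes. Not given in the sources used here are the program that made the FPKM and its use of strand. Depth is unknown. Implied fragment numbers come from the steps of low values, of which 61.4% to 72.4% by library lay within 0.1 of a whole step, too few to recover reads.

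Here 42 identical rows were removed, and where symbols were repeated the row with the highest mean was kept, which removed 133 further rows. Members had at least 1 FPKM in at least 3 of 6 libraries. They were tested with limma 3.58.1 (R 4.3.3) on log2(FPKM + 1), pseudocount 1, with 1 mean per zone, an intensity trend, two-sided, and Benjamini-Hochberg adjustment over all 13424 members at 0.05. The fit was tested on simulated data of 13424 genes in 10 runs: 5.19% of calls were false with equal noise and 3.89% with each library's own noise, and 47.8% and 54.1% of changes of log2 2 were recovered (8.8% and 10.2% of log2 1). Far fewer genes were changed in these runs than were called in the data, and the simulated noise did not copy the zeros of VZ3. These rates therefore do not carry over to the calls above.

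Members and the 58 gene lists were chosen with earlier results of these data known, and 3 further lists were added by symbol pattern after the values were seen. Named were the 12 highest and 12 lowest differences among calls without overlap (mean of at least 5 FPKM and no 0 in the higher zone, predicted genes skipped), the 8 most expressed calls of at least 2-fold in each direction, per list up to 4 calls with the smallest p and up to 2 other members of highest level, and Cenpj. Gene positions are from GENCODE M21 (GRCm38, the same assembly as mm10; 13059 members matched) and promoter windows from RefSeq GRCm38.p6. A few genes are not reported here by name. Alternatives were other pseudocounts, filters, scalings, weights and fits, a block for the replicate number, and each library left out in turn.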

Additional observations from a re-analysis of the deposited data

How the results depend on the processing

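The count of calls fell without VZ1 or any lMZ library and rose without VZ2 or VZ3. With each library left out in turn the calls ran from 194 (without VZ1) to 3322 (without VZ2), those higher in the VZ from 167 (without VZ1) to 1645 (without VZ3), and those lower from 19 (without lMZ1) to 1747 (without VZ2), against 1762, 1067 and 695 with all 6. Without lMZ1, lMZ2 and lMZ3 there were 227, 279 and 327 calls, and without VZ3 there were 2971. Leaving out 1 library leaves 5 samples in the fit. With array weights there were 6487 calls (3218 higher and 3269 lower), and with all 9 libraries in the fit 2811, of which 1294 were lower. With no filter on low values, over 21175 genes, there were 756 (554 higher and 202 lower), and with a pseudocount of 0.1 there were 1130, of which 303 were lower. Quantile normalization gave 1079 lower. The cause of these changes was not tested. Trimmed mean scaling gave 1993 calls and moved the median difference of all genes from 0.05 to -0.05, a shift of -0.11 on the log2 scale. The other counts were within 1.5 times of those with all 6 libraries. An alternative chosen after seeing the data, with only the 11384 genes above 0 in all 6 libraries, gave 1883 calls.

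The labels number the libraries 1 to 3 in each zone. Deviations of same-numbered libraries from their zone means correlated at r = -0.10, 0.11 and 0.04 across genes, so the numbers were not taken as pairs in this comparison. Most of the 12 regional factors, though not Tbr1, followed the numbers in the lMZ and the medial mantle. With a replicate block there were 1326 calls (797 higher and 529 lower), and Cenpj was at an adjusted p of 0.0587.

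Of 266 genes named, 232 were called and 136 of these kept the threshold under all 12 alternatives other than leaving out a library. Among genes that did not pass, Pax6 (0.07) turned to -0.31 with array weights, -0.01 with a pseudocount of 5, -0.02 with quantile normalization and -0.05 with trimmed mean scaling, and Zic2 (0.38) turned to -0.09 with array weights. With 1 library left out Pax6 ran from -0.81 to 0.61, Zic2 from -0.68 to 1.75, Fezf1 from -1.36 to 0.09, Lmx1b from -0.08 to 2.02, Sim1 from -1.14 to 0.0042 and Zic1 from -1.32 to 0.53. The shallow depth of VZ3 limits every statement on genes of low level there.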
